A study of Mus musculus with 9 samples.

Results

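Expression of 10 genes that buffer the energy supply of muscle fibres was examined in newborn mice lacking exon 11 of Shank3, a gene for a scaffold protein. The genes were chosen by name and role: the creatine kinases Ckm, Ckb, Ckmt1 and Ckmt2, the creatine synthesis enzymes Gatm and Gamt, the creatine transporter Slc6a8, the adenylate kinase Ak1 and the AMP deaminases Ampd1 and Ampd3. They are 10 of the 55471 gene IDs in the count table, and each had counts in every mouse. RNA of the gastrocnemius, a calf muscle, was sequenced at postnatal day 0 to 1 from 5 Shank3Δ11(−/−) mice (KO1 to KO5) and 4 Shank3(+/+) mice (WT1 to WT4), 1 library per mouse, all on a C57BL/6 background. The deletion is constitutive, so the muscle and its nerve supply share it. The labels give neither sex nor litter. The comparison of genotypes used KO1, KO3, KO5 and the 4 wild types (7 mice), because KO2 and KO4 were excluded from the study's analysis for their number of reads, and genotype results are followed by those of all 9 mice. In the table, KO4 had the highest total of counts on genes (40471957) and KO5 the lowest (26444372). Counts over the whole Shank3 gene were 29.4, 31.0 and 34.0 CPM (counts scaled to normalized library size) in KO1, KO3 and KO5, 25.7 in KO2 and 34.8 in KO4, and 32.9, 32.9, 32.7 and 38.6 in WT1 to WT4 (exact permutation test p = 0.286 in 7 mice and 0.198 in 9), and since they include reads outside exon 11 they do not check the deletion. The whole muscle was sequenced, so fewer cells of a type and less RNA per cell cannot be told apart.

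A contracting fibre spends ATP faster than its mitochondria can deliver it. Creatine kinases bridge the gap by moving phosphate between ATP and creatine: Ckm is the cytosolic form of muscle, Ckb the cytosolic form of brain and of undifferentiated muscle, Ckmt2 the mitochondrial form of striated muscle and Ckmt1 the mitochondrial form of other tissues. Developing fibres exchange Ckb for Ckm as they mature. Adenylate kinase regains ATP from ADP and leaves AMP, which AMP deaminase removes as IMP.

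The muscle form led the creatine kinases by a wide margin in every newborn mouse. Per kilobase of annotated exon, Ckm averaged 1543 CPM, ahead of Ak1 at 192.0, Gatm at 140.8, Gamt at 116.0, Ckmt2 at 115.4, Ampd1 at 66.3, Ckb at 17.4, Slc6a8 at 14.1, Ampd3 at 1.72 and Ckmt1 at 0.0849 (means of 9 mice). Between neighbours in this order the ranges over mice overlapped for Gatm and Gamt, Gamt and Ckmt2, Ckmt2 and Ampd1, and Ckb and Slc6a8, and were separate for the others. Gamt lay above Ckmt2 in 4 of 9 mice, and Ckb above Slc6a8 in 5 of 9, so these neighbours are not ordered beyond their spread. Scaling by the median length of the coding transcripts instead exchanged only Ampd1 (152.2 CPM per kilobase) and Ckmt2 (115.4), which stood next to each other in both orders.

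**Figure D1:**
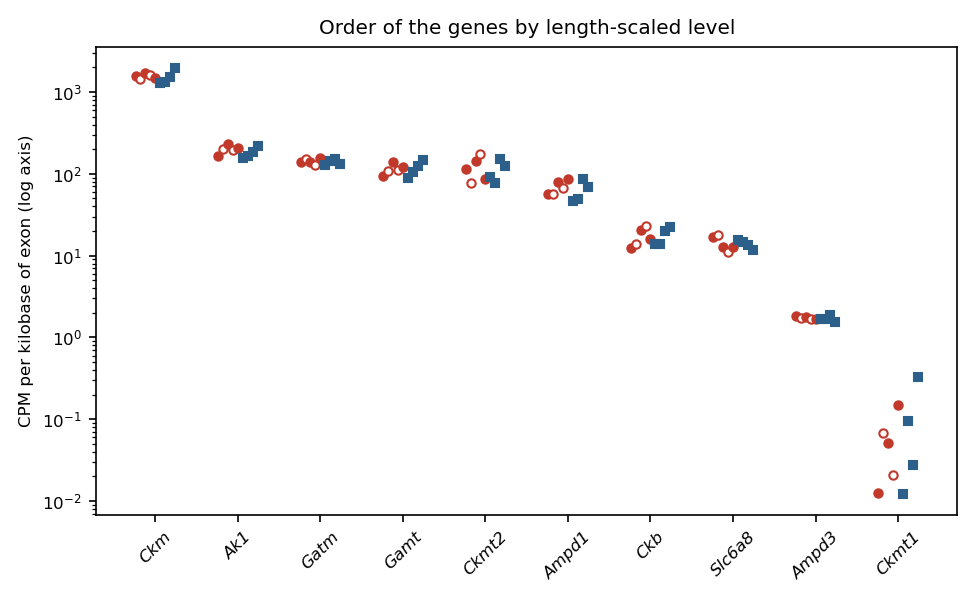
Level of each gene in CPM per kilobase of exon, on a log axis, 1 point per mouse. Filled red circles are KO1, KO3 and KO5, open circles KO2 and KO4, and blue squares the wild types. Ckm stands apart at the top (1543 on average) and Ckmt1 at the bottom (0.0849).

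The 3 creatine kinases with more than a handful of counts differed widely in level, and their promoter sequences are shown here for comparison (RefSeq, GRCm38.p6, gene strand, from 250 bases before the start site to 50 bases after it). Capitals mark the E-box CANNTG, the recognition letters of the myogenic regulators such as MyoD. Promoters were found for 8 of the 10 genes. Ckm lies at chr7:19410844-19411143 (+), Ckb at chr12:111672289-111672588 (−) and Ckmt2 at chr13:91876836-91877135 (−).
Ckm: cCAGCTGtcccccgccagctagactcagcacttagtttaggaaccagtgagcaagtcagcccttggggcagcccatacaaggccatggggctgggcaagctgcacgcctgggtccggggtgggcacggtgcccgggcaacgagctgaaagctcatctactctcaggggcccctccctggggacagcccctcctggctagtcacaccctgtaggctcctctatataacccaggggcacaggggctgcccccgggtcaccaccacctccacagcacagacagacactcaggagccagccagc
Ckb: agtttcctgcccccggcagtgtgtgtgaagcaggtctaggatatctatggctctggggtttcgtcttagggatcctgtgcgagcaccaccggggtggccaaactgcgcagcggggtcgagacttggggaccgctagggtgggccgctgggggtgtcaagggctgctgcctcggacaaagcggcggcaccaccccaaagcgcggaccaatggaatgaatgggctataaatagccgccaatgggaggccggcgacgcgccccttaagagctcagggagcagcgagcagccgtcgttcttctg
Ckmt2: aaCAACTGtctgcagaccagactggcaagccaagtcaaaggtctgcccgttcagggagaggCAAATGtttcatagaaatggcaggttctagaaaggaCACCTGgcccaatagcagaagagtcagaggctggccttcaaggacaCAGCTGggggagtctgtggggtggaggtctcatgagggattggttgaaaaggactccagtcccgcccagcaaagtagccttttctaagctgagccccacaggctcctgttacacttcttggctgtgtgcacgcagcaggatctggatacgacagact
The Ckmt2 window holds 4 E-boxes, which begin 248, 189, 153 and 107 bases before the start site, and the one at 107 reads CAGCTG. The Ckm window holds 1, the CAGCTG at its far edge (249 bases before). The Ckb window has no CANNTG, and its TATAAA begins 28 bases before the start site. Of 2 windows listed for Ckmt1, not printed here, 1 holds a CAGCTG that begins 1 base before the start site and a TATAAA on the opposite strand 31 bases before it, and the other holds neither. Among 32851 promoters of the same length, 72.3% hold CANNTG, 16.3% CAGCTG and 13.6% TATAAA on either strand (CAGCTG also counts as CANNTG). Such matches of letters describe the windows and are not measured sites.

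Ckm (ENSMUSG00000030399, chr7 from 19404776 to 19422841 on mm10) was counted at 4574, 4917 and 4306 CPM in KO1, KO3 and KO5, and at 3733, 3913, 4382 and 5683 CPM in WT1 to WT4. KO2 had 4190 CPM and KO4 4758. All Shank3Δ11(−/−) values lay inside the wild-type range, which WT1 and WT4 bounded. The means were 4599 ± 306 CPM (SD, n = 3) and 4428 ± 880 CPM (SD, n = 4), a log2 fold change of 0.05 (standard error 0.16, edgeR p = 0.743, FDR = 1.00, exact permutation test p = 0.714), and 0.05 in all 9 mice (edgeR p = 0.708, exact permutation test p = 0.698). Without WT4 it was 0.20. The antisense gene A930016O22Rik shares 451 exon bases with Ckm, and its counts were 25.8% to 32.2% of those of Ckm (1058 to 1533 CPM). The strand setting of the counting is not known from the sources, and reads of the shared bases cannot be told apart. Adding both together gave a log2 difference of 0.09 (exact permutation test p = 0.629).

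Ckb (ENSMUSG00000001270, chr12 from 111669361 to 111672338) had 35.9, 60.3 and 46.7 CPM in KO1, KO3 and KO5, and 39.9, 39.9, 57.4 and 65.4 CPM in WT1 to WT4. KO2 had 40.0 CPM and KO4, the highest of all mice, 67.4. The ranges of the genotypes overlapped, and both ends of the 1.88-fold spread over all mice, KO1 and KO4, were Shank3Δ11(−/−). The means were 47.6 ± 12.2 CPM (SD, n = 3) and 50.7 ± 12.9 CPM (SD, n = 4), a log2 fold change of -0.09 (standard error 0.22, edgeR p = 0.690, FDR = 1.00, exact permutation test p = 0.771), and -0.005 in all 9 mice (edgeR p = 0.979, exact permutation test p = 0.936). The pseudogene Ckb-ps1 had at most 19 counts in a mouse and Ckb-ps2 at most 2, against 1144 or more for Ckb.

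Ckmt2 (ENSMUSG00000021622, chr13 from 91853387 to 91876885) varied most of the 9 genes with enough counts to test, with a coefficient of variation of 30.3% over 9 mice. It had 170.5, 210.3 and 127.7 CPM in KO1, KO3 and KO5, 116.1 in KO2 and 256.4 in KO4, and 135.0, 113.7, 225.6 and 187.2 CPM in WT1 to WT4. High and low mice occurred in both genotypes, and KO2 and KO4, the excluded pair, were near opposite ends. The log2 fold change was 0.03 (standard error 0.24, edgeR p = 0.889, FDR = 1.00, exact permutation test p = 0.857), and 0.10 in all 9 mice (edgeR p = 0.694, exact permutation test p = 0.802). Without WT3 it was 0.23 and without KO3 -0.15. Ckmt1 (ENSMUSG00000000308, chr2 from 121357714 to 121363737) was close to the limit of detection, with 1, 4 and 10 counts in KO1, KO3 and KO5, 5 in KO2 and 2 in KO4, and 1, 8, 2 and 25 counts in WT1 to WT4. It was the only one of the 10 genes that did not pass the filter on low counts (exact permutation test on log2 CPM p = 0.857 in 7 mice and 0.635 in 9). WT4, the mouse with 25 counts, also had the highest summed level of the epidermal markers (43.6 CPM, against 6.59 to 23.2 in the others) and of the kidney or liver markers (21.8 CPM, against at most 0.675). The latter sum was mostly Alb, which reached 20.53 CPM, while Ttr reached 1.305 CPM. Of the same list, Umod was at 0 in every mouse and Slc34a1 at 0.1355 CPM at most. The part of other tissues in the Ckmt1 counts of WT4 was not tested.

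**Figure D2:**
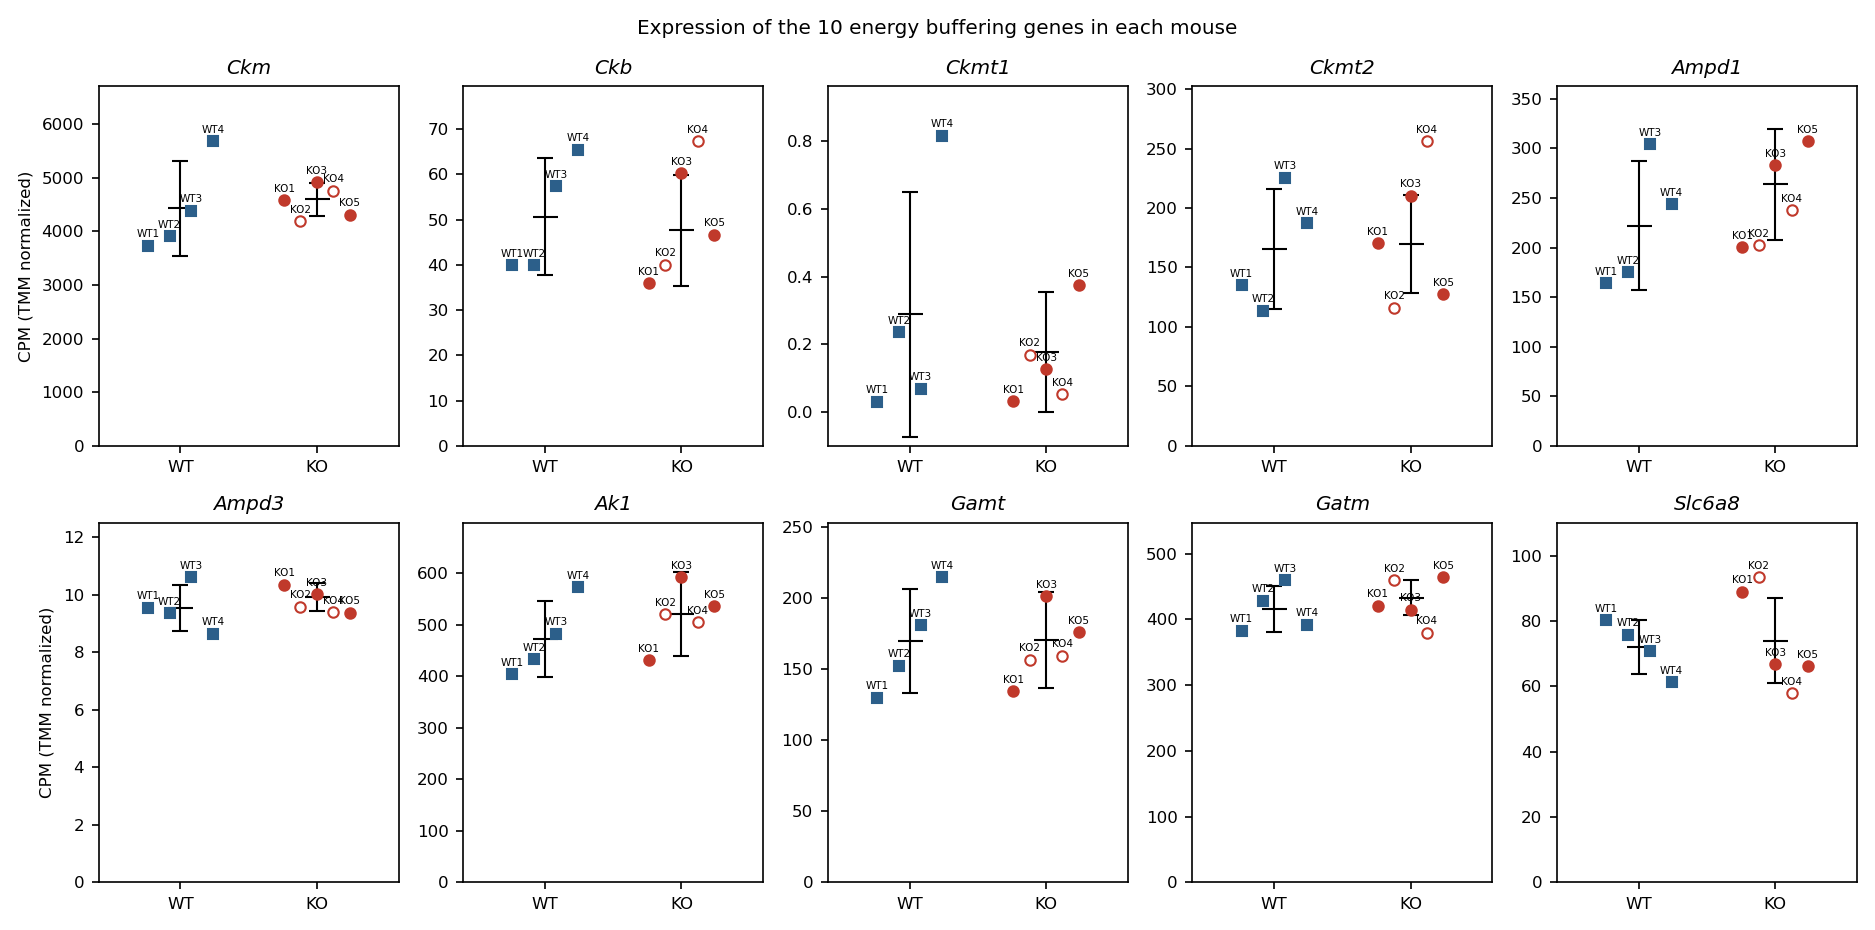
CPM of each gene in each mouse by genotype. Filled red circles are KO1, KO3 and KO5, open circles the excluded KO2 and KO4, blue squares the wild types, and bars the mean ± SD of 4 wild types and of the 3 filled circles (for Ckmt1 the bar reaches below 0). In all 10 panels the genotypes overlap.

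The 4 creatine kinases together took between 0.404% (WT1) and 0.593% (WT4) of all counts. Of these, Ckm made up 93.6% to 96.4% (median 95.7%), Ckmt2 2.67% to 5.05%, Ckb 0.751% to 1.33% and Ckmt1 at most 0.0138%. Per exon length the share of Ckm was 89.3% to 94.0% and that of Ckmt2 5.11% to 9.43%. The composition was therefore dominated by the muscle form in every library, with the mitochondrial muscle form next.

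Within a library the ratio of 2 genes needs no scaling for depth, so isoform balance was compared as log2 ratios of counts, 4 ratios in all. The smallest p that an exact test of these mice allows is 0.0286 for 3 against 4 and 0.00794 for 5 against 4. Ckm exceeded Ckb 127-, 81.6- and 92.3-fold in KO1, KO3 and KO5, 105-fold in KO2 and 70.6-fold in KO4, and 93.5-, 98.1-, 76.3- and 86.8-fold in WT1 to WT4. KO1 was the highest mouse and KO4 the lowest, and the wild types fell between them. In the Shank3Δ11(−/−) mice the log2 ratio was 6.62 ± 0.33 (SD, n = 3), and in the wild types 6.46 ± 0.16 (SD, n = 4), a difference of 0.16 (exact permutation test p = 0.486, adjusted over the 4 ratios 0.971), and 0.08 in all 9 mice (exact permutation test p = 0.683). Without KO1 the difference was -0.03, so its direction rests on that mouse. Ckm exceeded Ckmt2 18.6- to 36.1-fold in counts and 9.46- to 18.4-fold per exon length, with KO4 lowest and KO2 highest. The genotypes differed by 0.02 on the log2 scale (exact permutation test p = 1.00). In all 9 mice that difference was -0.02 (exact permutation test p = 0.913). Ckmt2 against Ckmt1 differed by 0.36 (exact permutation test p = 0.83), and by 0.51 in all 9 mice (exact permutation test p = 0.635), a ratio that follows the few counts of Ckmt1 and ranged from -0.44 without KO1 to 1.30 without KO5.

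**Figure D3:**
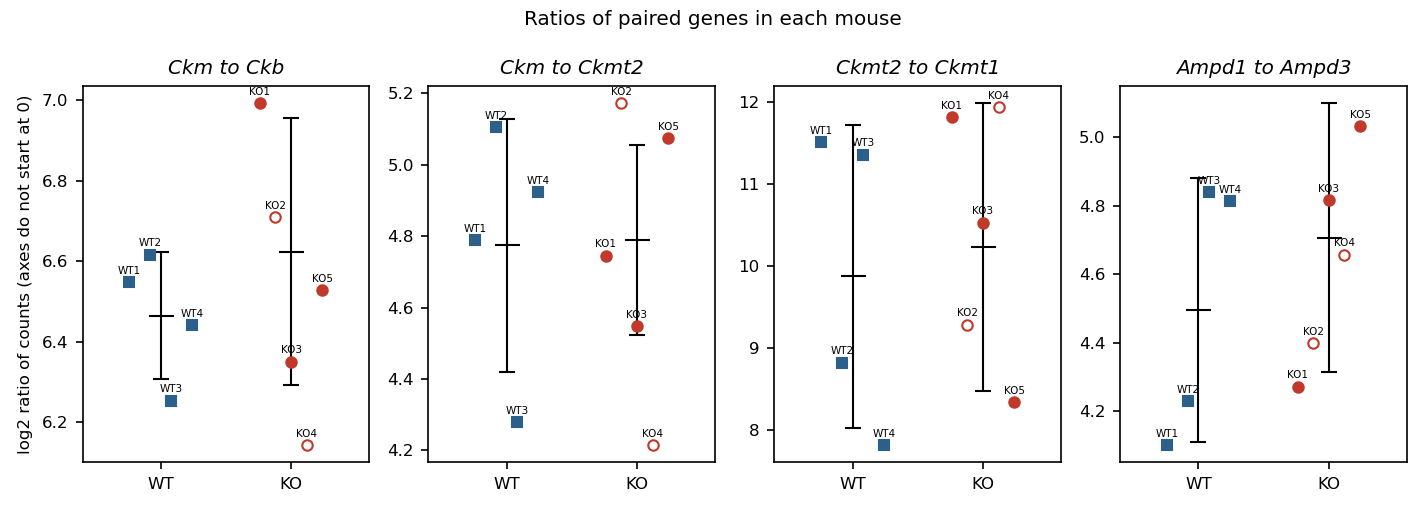
Log2 ratio of counts for 4 gene pairs in each mouse (axes do not start at 0). Filled red circles are KO1, KO3 and KO5, open circles KO2 and KO4, blue squares wild types, and bars the mean ± SD of the wild types and the filled circles. Genotypes overlap in each pair, and KO4 has the lowest Ckm to Ckb ratio.

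Creatine itself is made by Gatm, which forms guanidinoacetate from arginine and glycine, and by Gamt, which methylates it. Gatm (ENSMUSG00000027199, chr2 from 122594467 to 122611303) was among the steadiest of the genes, with 420.9, 414.7 and 463.8 CPM in KO1, KO3 and KO5 and 383.0, 428.2, 459.7 and 392.1 CPM in WT1 to WT4. KO2 had 459.8 CPM and KO4, the lowest mouse, 379.8. The genotypes overlapped, with a log2 fold change of 0.06 (standard error 0.11, edgeR p = 0.592, FDR = 1.00, exact permutation test p = 0.571) and of 0.05 in all 9 mice (edgeR p = 0.595, exact permutation test p = 0.682). Gamt (ENSMUSG00000020150, chr10 from 80258151 to 80261012) had 134.7, 201.5 and 176.0 CPM in KO1, KO3 and KO5 and 130.1, 152.5, 181.3 and 214.7 CPM in WT1 to WT4, with 156.8 in KO2 and 159.7 in KO4. Its wild-type mice alone covered the range of all 9, and the genotypes differed by 0.01 on the log2 scale (standard error 0.18, edgeR p = 0.961, FDR = 1.00, exact permutation test p = 0.971), or by -0.02 in all 9 mice (edgeR p = 0.880, exact permutation test p = 0.873).

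Slc6a8 (ENSMUSG00000019558, chrX from 73673150 to 73682502), which carries creatine into the cell, had 89.0, 66.9 and 66.3 CPM in KO1, KO3 and KO5, and 80.3, 75.9, 70.8 and 61.4 CPM in WT1 to WT4. KO2 had 93.4 CPM, the highest, and KO4 58.1, the lowest. The extremes were both excluded mice of the same genotype. The log2 fold change was 0.04 (standard error 0.13, edgeR p = 0.772, FDR = 1.00, exact permutation test p = 0.886), 0.06 in all 9 mice (edgeR p = 0.677, exact permutation test p = 0.809) and -0.11 without KO1. The 4 mice with the highest Slc6a8 (KO2, KO1, WT1 and WT2) were the 4 with the lowest Ckb, and KO4 had the highest Ckb and the lowest Slc6a8. This arrangement was seen in the values and is given as a description only.

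Ak1 (ENSMUSG00000026817, chr2 from 32621758 to 32635058), the cytosolic adenylate kinase of muscle, was second to Ckm per length. It had 431.9, 592.3 and 536.9 CPM in KO1, KO3 and KO5, 520.6 in KO2 and 504.9 in KO4, and 404.5, 433.6, 482.9 and 572.7 CPM in WT1 to WT4. The lowest mouse was WT1 and the highest KO3, with the genotypes overlapping. The means of 520.4 ± 81.5 CPM (SD, n = 3) and 473.4 ± 73.7 CPM (SD, n = 4) gave a log2 fold change of 0.14 (standard error 0.15, edgeR p = 0.392, FDR = 1.00, exact permutation test p = 0.400), and 0.14 in all 9 mice (edgeR p = 0.276, exact permutation test p = 0.318). Without KO3 it was 0.04, without KO1 0.26 and without WT4 0.25.

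Of the AMP deaminases, Ampd1 is the form of adult muscle fibres and Ampd3 is found in red blood cells and many tissues. Ampd1 (ENSMUSG00000070385, chr3 from 103074014 to 103099720) had 200.3, 282.9 and 307.5 CPM in KO1, KO3 and KO5, and 164.1, 175.5, 304.0 and 243.8 CPM in WT1 to WT4. KO2 had 202.7 CPM and KO4 237.4. Low and high mice occurred in each genotype. Its means, 263.6 ± 56.1 CPM (SD, n = 3) and 221.8 ± 65.1 CPM (SD, n = 4), were the farthest apart of the tested genes on the log2 scale, at 0.25 (standard error 0.22, edgeR p = 0.289, FDR = 1.00, exact permutation test p = 0.371) and 0.16 in all 9 mice (edgeR p = 0.407, exact permutation test p = 0.444). Without WT3 the difference was 0.45, under the unadjusted threshold of 0.05 in edgeR but not after adjustment (FDR = 1.00), and without KO5 it was 0.11.

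Ampd3 (ENSMUSG00000005686, chr7 from 110768206 to 110812405) was the steadiest gene, with 10.4, 10.02 and 9.38 CPM in KO1, KO3 and KO5, 9.59 in KO2 and 9.40 in KO4, and 9.55, 9.35, 10.6 and 8.65 CPM in WT1 to WT4. The coefficient of variation over 9 mice was 6.11%. The log2 fold change was 0.06 (standard error 0.13, edgeR p = 0.668, FDR = 1.00, exact permutation test p = 0.514), and 0.04 in all 9 mice (edgeR p = 0.702, exact permutation test p = 0.611). Erythroid markers summed to 5792 CPM in KO1 and to 1212 to 2197 CPM in the other mice, with 5 of the 8 at 1 CPM or more in every mouse. Ampd3 in KO1 was 10.4 CPM, inside the range of the others. Rnf141, on the opposite strand, shares exon bases with Ampd3 and had 25.2 to 40.8 CPM, so part of the counts may be shared between them. In counts, Ampd1 exceeded Ampd3 19.3-, 28.2- and 32.7-fold in KO1, KO3 and KO5, 21.1-fold in KO2 and 25.2-fold in KO4. The wild types had 17.2-, 18.8-, 28.6- and 28.1-fold in WT1 to WT4. Per exon length the excess was 27.2- to 51.9-fold over all mice. The log2 ratio differed by 0.21 between the genotypes (exact permutation test p = 0.486, adjusted over the 4 ratios 0.971) and by 0.14 in all 9 mice (exact permutation test p = 0.532).

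Across the 10 genes, the genotypes did not differ beyond the spread between mice. None of the 9 tested genes passed an unadjusted p of 0.05 in edgeR with 7 or with 9 mice, nor with DESeq2 or limma-voom in the 7 mice, against 2.08% of the 21809 genes tested in 7 mice and 2.03% of 21735 in 9. At the study's criterion, p below 0.05 with FDR below 25%, 0 of the 9 were called in edgeR, as were 0.0% of all genes. In none of the 10 were the genotypes separate, against 2.84% of all genes tested in 7 mice and 0.704% in 9. By sign alone, 8 of the 9 were higher in Shank3Δ11(−/−) and 1 lower in 7 mice, and 7 and 2 in 9 mice. The median absolute log2 fold change was 0.06 over the 9 genes and 0.10 over all genes tested (7 mice). All genes tested include many with lower counts than the 9, so these medians are not matched for level. The 95% intervals of the fitted fold changes reached from 0.672-fold (Ckb) to 1.68-fold (Ampd1) in 7 mice and from 0.728-fold to 1.58-fold (both Ckmt2) in 9. The narrowest in 7 mice was that of Gatm, from 0.881- to 1.24-fold.

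**Figure D4:**
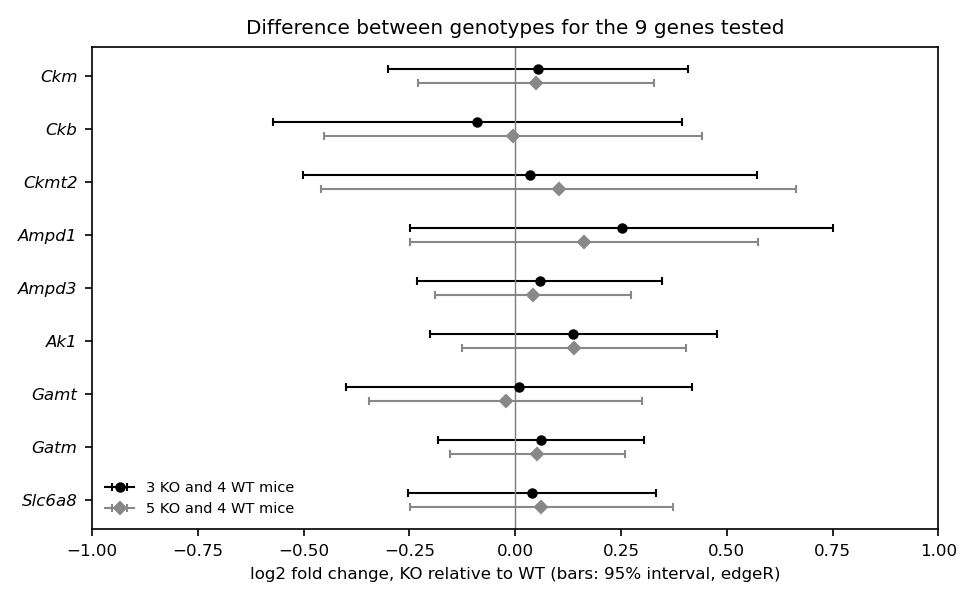
Log2 fold change of Shank3Δ11(−/−) relative to Shank3(+/+) for the 9 genes tested, with 95% intervals from edgeR. Black circles are 7 mice and grey diamonds all 9. Every interval includes 0, and the widest upper bound in 7 mice is that of Ampd1 (1.68-fold).

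Genes of the neighbouring steps of the pathway were counted from 6 lists. Of 44 listed genes, 39 were tested, of which 23 were higher and 16 lower in Shank3Δ11(−/−) by sign, and 1 passed an unadjusted p of 0.05 (2.08% of all genes tested). This was Xdh, which oxidizes hypoxanthine and xanthine to uric acid, with 3.86, 1.92 and 2.89 CPM in KO1, KO3 and KO5 and 2.28, 1.598, 1.652 and 1.795 CPM in WT1 to WT4. Its genotypes overlapped through WT1, and KO2 had the lowest value of all mice, 0.982 CPM. The log2 fold change was 0.66 (standard error 0.26, edgeR p = 0.0274, FDR = 1.00, exact permutation test p = 0.0857), and 0.44 in all 9 mice (edgeR p = 0.182). With 9 mice, 0 of 39 passed in edgeR. By list, the signs in 7 mice were 4 higher and 2 lower among the other adenylate kinases and a related nucleotide kinase. They were 4 and 0 in the purine nucleotide cycle, which turns AMP into IMP and back. Among the subunits of AMPK, which senses AMP, and its upstream kinases with their partners they were 5 and 6. In the exchange of adenine nucleotides across the mitochondrial membranes they were 2 and 3. The breakdown and salvage of adenosine and IMP had 7 and 3, and other transporters of creatine and related compounds 1 and 2. The median log2 fold changes of the 6 lists lay between -0.03 and 0.08, beside -0.01 over all genes tested.

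Several genes followed a division of the mice other than genotype, Ampd1 and Gamt in all 9 mice. Xist, the noncoding RNA of the inactive X chromosome, was at 926.6 and 802.4 CPM in KO3 and KO5 and at 892.1 and 620.8 CPM in WT3 and WT4. It was at 3.21 CPM in KO4 and at most 0.220 CPM in KO1, KO2, WT1 and WT2. The Y-linked genes Ddx3y, Eif2s3y, Kdm5d and Uty summed to 188.8 to 248.2 CPM in the latter 5 mice and to at most 0.424 CPM in the 4 with high Xist. Ampd1 was 243.8 to 307.5 CPM in the 4 mice with high Xist and 164.1 to 237.4 CPM in the other 5. Gamt was 176.0 to 214.7 CPM against 130.1 to 159.7. In both genes the values were separate, each with 2 mice of either genotype on the high side. Higher and separate were thus 2 of the 10 genes (1.4% of all genes tested) and lower and separate 0 of 10 (0.985%). In the 7 mice of the genotype comparison, where KO2 and KO4 are absent, 4 of the 10 genes were higher and separate in the mice with high Xist (8.04% of all genes tested) and 1 was lower and separate (7.68%). These were Ampd1 and Gamt, Ckb at 46.7 to 65.4 CPM against 35.9 to 39.9, Ak1 at 482.9 to 592.3 CPM against 404.5 to 433.6, and, on the lower side, Slc6a8 at 61.4 to 70.8 CPM against 75.9 to 89.0. With so few genes the counts are a description.

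**Figure D5:**
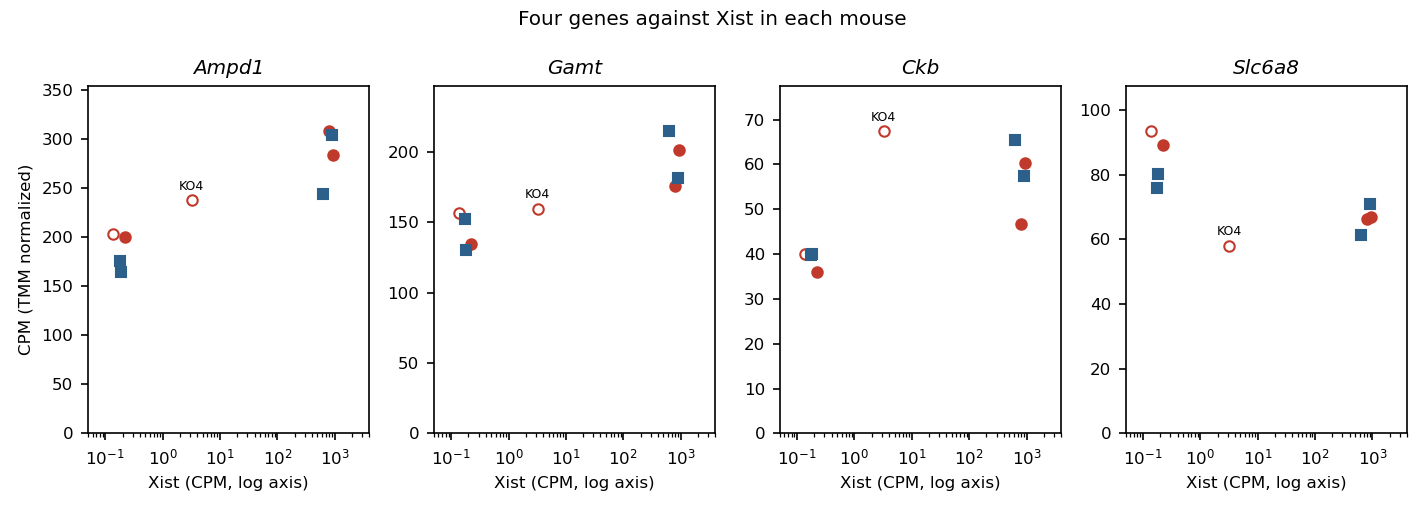
CPM of 4 genes against CPM of Xist (log axis) in each mouse. Filled red circles are KO1, KO3 and KO5, open circles KO2 and KO4, blue squares wild types. Ampd1 and Gamt are higher in each of the 4 mice with high Xist than in the other 5, whereas Ckb and Slc6a8 overlap because of KO4.

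Within this division, the difference of Ampd1 between genotypes was 0.12 on the log2 scale among the 4 mice with high Xist and 0.24 among the other 3 mice of the comparison (0.33 with KO2 and KO4). With Xist as a covariate it was 0.15 in 7 mice, not under 0.05 in edgeR, and 0.20 in all 9 mice, under 0.05 before adjustment and not after it (FDR = 1.00). Gamt, at 0.01 without regard to Xist, was -0.07 among the 4 mice with high Xist and -0.06 among the other 3, and -0.08 with the covariate in 7 mice. The covariate in 7 mice also moved Ckb from -0.09 to -0.20, Ak1 from 0.14 to 0.07 and Slc6a8 from 0.04 to 0.09, none of them under 0.05 in edgeR. Ckmt2 and Ckm went in opposite directions in the 2 sets, at -0.33 and 0.46 for Ckmt2 and at -0.12 and 0.26 for Ckm, with 1 to 2 mice of a genotype in each set, and these contrasts were not tested. Of the marker lists checked, only the summed smooth muscle markers were also separate. They were at 785.5 to 824.7 CPM with high Xist and 690.3 to 749.2 CPM in the others. All 5 markers were at 1 CPM or more in every mouse. Most of the sum came from Acta2 (339.5 to 450.3 CPM) and Smtn (215.1 to 281.6 CPM). The part of these markers in the values of Ampd1 and Gamt was not tested.

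Other cell types were checked by their markers. The 9 skeletal muscle fibre markers were all at 1 CPM or more in every mouse. They summed to 61270 to 65770 CPM in KO1, KO3 and KO5, 62500 in KO2 and 59950 in KO4. The wild types had 59770 to 66610 CPM. The 5 myogenic progenitor markers summed to 382.5 to 465.0 CPM in KO1, KO3 and KO5, 526.2 in KO2 and 360.5 in KO4. In the wild types that sum was 453.1 to 560.3 CPM. Schwann cell markers summed to 426.2 CPM in KO5, 215.5 in KO1, 195.6 in KO2, 134.6 in KO3 and 102.9 in KO4, against 113.2 to 166.0 in the wild types. Adipocyte markers summed to 281.1 CPM in KO5, 25.9 in KO1, 6.94 in KO2, 0.536 in KO3 and 0.574 in KO4, against at most 2.79 in the wild types, with Cfd and Lep at 0 in some mice. Of the tested markers, 3 of 5 Schwann cell, 3 of 3 adipocyte and 1 of 5 myogenic progenitor genes had an unadjusted edgeR p below 0.05, against 2.08% of all genes. In KO5 and KO1 Ckb, which nerve tissue also expresses, was 46.7 and 35.9 CPM, the latter the lowest of all. The part of nerve tissue in the Ckb values was not tested. The 4 brain markers summed to 5.90 to 12.1 CPM, and Umod, a kidney marker, was at 0 in every mouse.

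The genes whose log2 CPM followed Ckm most closely over the 9 mice were Il3ra (Pearson r = 0.95), Thoc6 (0.95), Gm21974 (0.94), Gga1 (0.94) and Gm47428 (0.93), out of 10866 genes with a mean of at least 10 CPM. Among those closest to Ckb were Skiv2l (0.98), Serpinh1 (0.98), Cenpa (0.98) and Mpnd (0.98). Those closest to Ampd3 were Vps13a (0.98), Ero1l (0.97), Cggbp1 (0.96), Gtf3c3 (0.95) and Mapk14 (0.93). These are the highest of many correlations over mice that share the division by Xist and their library quality, and are listed as a description.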

How the data were processed

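RNA of the gastrocnemius of 9 newborn mice was sequenced, 1 library per mouse. The authors aligned reads to mm10 (HISAT2), retained concordant alignments and ran featureCounts, and the deposited values are raw counts per Ensembl gene. Its annotation release, strand setting and rule for multi-mapping reads were not given in the sources used here. Totals were 26444372 to 40471957 counts. Symbols and positions came from GENCODE M21 (55230 of 55471 IDs), promoters from RefSeq.

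Counts were filtered with filterByExpr (minimum count 10, minimum total 15), scaled by TMM and tested with the robust quasi-likelihood test of edgeR 4.0.16 in R 4.3.3 on all genes, with Benjamini-Hochberg adjustment (FDR). Per-gene exact permutation tests were 2-sided, on log2 CPM (prior count 2), and ratios used a prior count of 0.5. Mice are the replicates. The genes and lists were chosen with earlier results of these data known. Named genes were the 10, up to 3 genes per direction and pathway list with p below 0.05, and the 5 genes most like Ckm, Ckb and Ampd3. 1 of these is not reported here. Alternatives were other mice, normalizations, filters, DESeq2 1.42.0, limma-voom (limma 3.58.1), a replicate block and Xist as a covariate. The tests were tried on simulated data. Python 3.11.15 and matplotlib 3.10.9 drew the figures.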

Additional observations from a re-analysis of the deposited data

How the results depend on the processing

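No gene of the 10 passed FDR below 25% under any alternative in which it was fitted (edgeR, DESeq2 and limma-voom) (lowest FDR 0.998). Ckmt1, at most 25 counts in a mouse, was removed by the filter on low counts, and without the filter its log2 fold change in edgeR was -0.73 (standard error 1.07, FDR = 0.998). This fit of Ckmt1, the sum of Ckm and its antisense gene, and the differences and counts within the division by Xist were chosen after seeing the data. Ampd1, Ampd3 and Ak1 kept their sign in 22 of 22 alternatives. The fitted difference of Gamt turned negative with all 9 mice (-0.023), library totals alone (-0.0025), the replicate block in 9 mice (-0.039) and Xist as a covariate in 7 mice (-0.081) or 9 (-0.0013). That of Ckb turned to 0.031 with Xist as a covariate in 9 mice, that of Gatm to -0.0057 with the replicate block in 7 mice, and the log2 ratio of Ckm to Ckmt2 to -0.023 with all 9 mice. The causes were not tested.

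Leaving out 1 mouse at a time moved the log2 fold change from -0.014 to 0.20 for Ckm, from -0.29 to 0.082 for Ckb, from -0.15 to 0.23 for Ckmt2, from -0.12 to 0.16 for Gamt, from -0.0014 to 0.12 for Gatm, from -0.11 to 0.11 for Slc6a8, from 0.11 to 0.45 for Ampd1, from 0.019 to 0.12 for Ampd3 and from 0.038 to 0.26 for Ak1. It moved the ratios from -0.026 to 0.30 (Ckm to Ckb), -0.15 to 0.14 (Ckm to Ckmt2), -0.44 to 1.30 (Ckmt2 to Ckmt1) and 0.05 to 0.43 (Ampd1 to Ampd3). Genes with p below 0.05 numbered 453, and 224 (without KO5) to 968 (without KO1), with 794 without KO3. They numbered 972 without a filter. The count of the 10 genes with p below 0.05 ranged from 0 to 1 (Ampd1, without WT3, and with Xist as a covariate in 9 mice, 1). That of the pathway genes, 1 in 7 mice, ranged from 0 (without KO5, WT2 or WT3) to 3 (without KO1), and was 0 with all 9 mice, 2 with Xist as a covariate in 7 mice and 0 in 9. It was 2 without KO3 or WT1.

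Both genotypes carry replicate numbers 1 to 4, which the labels do not tie to a litter or day. Deviations of mice with the same number correlated at 0.373, 0.0524, 0.357 and 0.101, and only numbers 1 and 3 were each other's best match, so the numbers were not taken as pairs. The replicate block gave 844 genes with p below 0.05 in 7 mice and 452 in 9. Without KO2 and KO4, only numbers 1 and 3 occur in both genotypes. The blocked difference in 7 mice therefore rests on KO1, KO3, WT1 and WT3 alone, and its gene count does not compare directly with the main fit. The mean difference of the KO1 and KO3 pairs in the log2 ratio of Ckmt2 to Ckmt1 was -0.26. The block in 7 mice moved the log2 fold change of Ckm from 0.05 to 0.23, of Ampd1 from 0.25 to 0.092 and of Gamt from 0.0092 to 0.10. Under it none of the 9 genes fitted passed an unadjusted p of 0.05 in edgeR, as without it.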
